A study of Mus musculus with 23 samples.

Results

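The genes described here act at the neuromuscular junction, the synapse between a motor nerve and a muscle fibre, or are used as marks of muscle that has lost its nerve. They are 10 genes chosen by symbol in the muscle table, of 20628 genes there and of 29894 genes in any table of the study: Chrna1, Chrnb1, Chrnd, Chrne, Chrng, Musk, Dok7, Myog, Runx1 and Ncam1. RNA was sequenced from C57BL/6 mice given oxaliplatin, a platinum cancer drug that is toxic to nerves, at 10 mg/kg, or vehicle, and tissues were taken after 8 weeks. Tibialis anterior, a fast leg muscle, came from 5 oxaliplatin and 4 vehicle mice, and subcutaneous white fat and hypothalamus each came from 4 oxaliplatin and 3 vehicle mice, all without any labelled genetic change. Within a group the titles repeat the same mouse numbers across tissues, so the tissues are not taken as independent sets of mice. Age and sex were not used here. Each tissue is a mixture of cells, so a lower value from fewer cells of a type cannot be told apart from one with less RNA per cell.

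The muscle acetylcholine receptor is a ring of 5 subunits encoded by Chrna1, Chrnb1, Chrnd and Chrne in adult muscle, with Chrng in place of Chrne before birth. The receptor kinase MuSK and its partner Dok7 gather receptors under the nerve ending after the nerve protein agrin binds Lrp4. When the nerve is lost, fibres are known to make receptor subunits along their length again, and the transcription factors Myog and Runx1, the kinase gene Musk and the adhesion molecule gene Ncam1 are known to rise with them. Cutting a limb's nerve is the usual model of that response, and oxaliplatin neuropathy is known mainly as a sensory one.

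The sequences before 3 of these genes are shown for the motifs they hold, which are known from work on muscle promoters. The E-box, CANNTG, is bound by myogenic factors such as the product of Myog, and the N-box, CCGGAA, is known for expression of Chrne in the nuclei under the synapse. Each sequence is RefSeq's, build GRCm38.p6, written 5′ to 3′ on the gene's strand, from base -180 to base -31 before the start. Capitals mark E-boxes and, in Chrne, also the N-box.
Chrna1, chr2:73580369-73580518, minus strand: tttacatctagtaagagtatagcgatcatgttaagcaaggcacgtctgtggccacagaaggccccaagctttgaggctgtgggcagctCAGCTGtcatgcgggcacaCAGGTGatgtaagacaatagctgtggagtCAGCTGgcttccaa
Chrne, chr11:70619225-70619374, minus strand: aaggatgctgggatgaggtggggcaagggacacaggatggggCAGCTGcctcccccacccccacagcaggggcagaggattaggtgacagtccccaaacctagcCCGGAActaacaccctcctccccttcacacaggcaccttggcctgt
Musk, chr4:58285782-58285931, plus strand: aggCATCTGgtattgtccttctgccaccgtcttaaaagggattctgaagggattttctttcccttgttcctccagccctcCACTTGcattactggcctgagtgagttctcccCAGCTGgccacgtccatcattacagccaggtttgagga

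Promoters were matched by symbol for 8 of the 10 genes, Chrnd and Ncam1 being the others. These genes had 10 promoters, as Dok7 and Runx1 each had more than 1. In the 250 bases before the start, on both strands, 8 of the 10 promoters held an E-box, against 66.2% of all 32851 promoters in the table. All 8 matched genes held an E-box in at least 1 promoter, while Dok7 and Runx1 also had a promoter without one. The form CAGCTG, which is also an E-box, was found in 4 of the 10 promoters (Chrna1, Chrne, Chrng and Musk), against 13.0% of all promoters. CCGGAA was found in 1 promoter each of 2 genes, Chrne and Runx1, against 12% of all promoters. Chrna1 held 3 E-boxes, Musk 3 and Chrne 1. A match is only a description of the letters.

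Labels disagree on 1 muscle library. Oxaliplatin mouse 5 is named so in its title but listed as vehicle under treatment. The title and the study's numbers of mice per group put it with oxaliplatin, and it is kept there, with values without it or with it as vehicle given where they matter. It was the highest oxaliplatin library for 9 of the 10 genes, all except Dok7. Total counts per library were 22427670 to 32151271 in oxaliplatin muscle and 27344014 to 31195917 in vehicle muscle. Samples of a group are taken as separate mice from their titles, and p-values measure the spread between them. Muscle identity was clear, since 11 muscle fibre genes such as Acta1 and Ckm summed to 137073 to 181966 CPM with oxaliplatin and 136523 to 180453 CPM with vehicle. CPM are counts per 1000000 library counts, corrected for library composition.

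None of the 10 genes passed the test between oxaliplatin and vehicle muscle. edgeR tested 9 of them, Chrng being too low, and called 0 at an adjusted p under 0.05, where 0.163% of all 14737 genes tested were called. DESeq2 and limma-voom also called 0 of the 9. At an unadjusted p under 0.05 each of the 3 tools had 1 gene, Chrna1, and in edgeR 9.59% of all genes passed that mark. Of the 9 genes, 5 had a log2 fold change above 0, against 47.8% of all genes, and their median was 0.23, against -0.01 over all genes. The libraries of the groups overlapped for each of the 10 genes, and did not overlap for 3.89% of all genes.

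**Figure D1:**
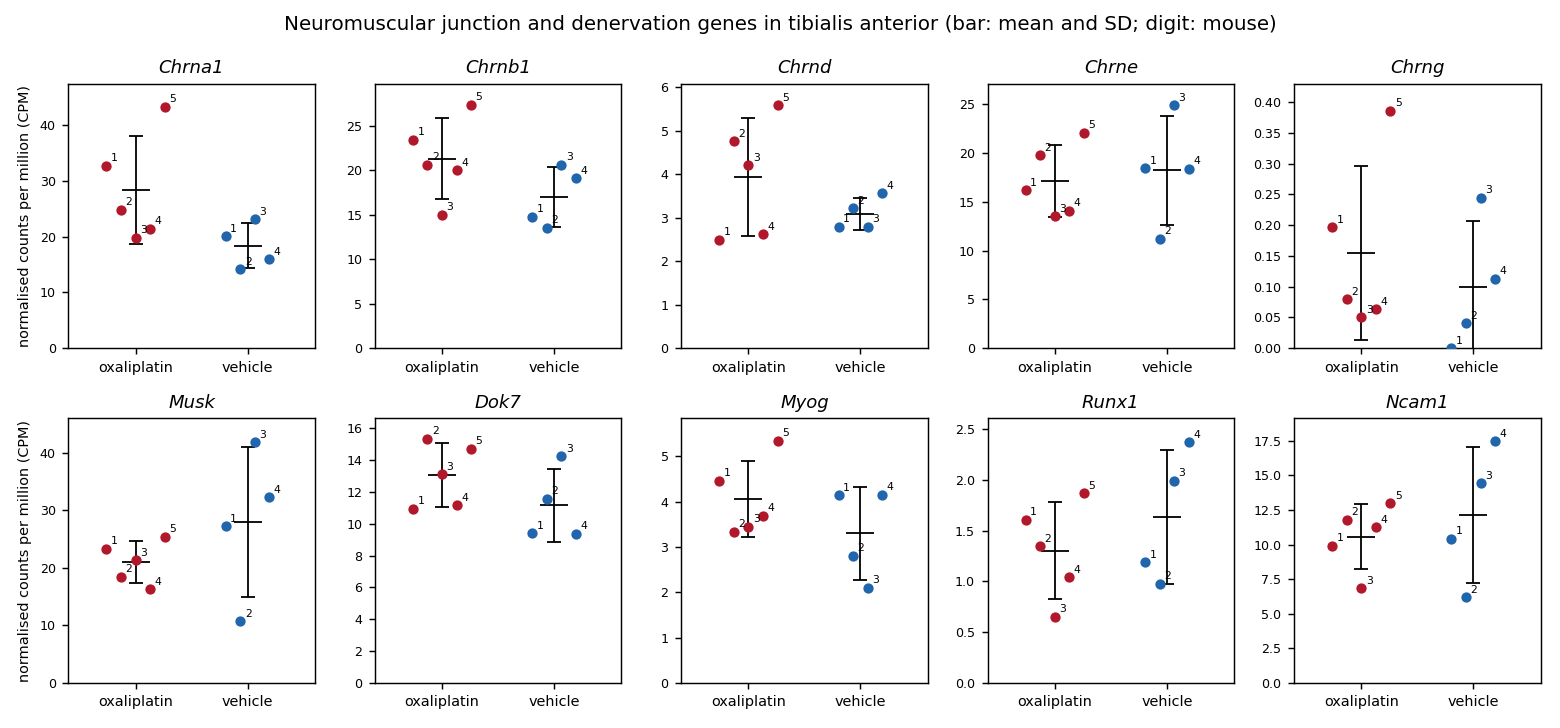
Normalised counts (CPM) of the 10 genes in each tibialis anterior library, oxaliplatin (red) left of vehicle (blue), with the mouse number beside each point and bars for the mean and SD. Oxaliplatin mouse 5 is the highest oxaliplatin point for 9 genes, and the groups overlap in every panel.

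Chrna1 encodes the subunit that binds acetylcholine (ENSMUSG00000027107, chr2:73563215-73580338, minus strand, GRCm38). It measured 32.7, 24.8, 19.8, 21.4 and 43.3 CPM in oxaliplatin mice 1 to 5, against 20.1, 14.2, 23.1 and 16 CPM in vehicle mice 1 to 4. Oxaliplatin mice 1, 2 and 5 were above every vehicle mouse, while mice 3 and 4 lay below vehicle mouse 3. On the log2 scale the fold change was 0.63 ± 0.23 (SE, 95% interval 0.13 to 1.14), a 1.55-fold difference that missed the threshold (edgeR adjusted p = 0.390). It was 0.43 without oxaliplatin mouse 5, and 0.08 with mouse 5 counted as vehicle. The unadjusted mark was missed with mouse 5 counted as vehicle, without vehicle mouse 2 (0.54) and without vehicle mouse 4 (0.57).

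Chrnb1, the beta subunit (ENSMUSG00000041189, chr11:69784036-69795943, minus strand), measured 23.5, 20.6, 15, 20.0 and 27.4 CPM in oxaliplatin mice 1 to 5, against 14.8, 13.5, 20.6 and 19.1 CPM in vehicle mice 1 to 4. Mice 1 and 5 of the oxaliplatin group stood above all vehicle mice, and the rest overlapped them. Chrnb1 had a log2 fold change of 0.32 ± 0.18 (SE, edgeR adjusted p = 0.626), and of 0.050 with mouse 5 counted as vehicle. Chrnd, the delta subunit (ENSMUSG00000026251, chr1:87190607-87200070, plus strand), was scarcer, at 2.49, 4.76, 4.2, 2.62 and 5.58 CPM in oxaliplatin mice 1 to 5, against 2.79, 3.22, 2.79 and 3.56 CPM in vehicle mice 1 to 4. Its vehicle libraries lay close together, with 3 oxaliplatin libraries above them and 2 below. For Chrnd it was 0.34 ± 0.25 (SE, edgeR adjusted p = 0.752), and -0.04 with mouse 5 counted as vehicle.

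Chrne, the adult epsilon subunit made under the nerve ending (ENSMUSG00000014609, chr11:70614883-70619216, minus strand), measured 16.2, 19.8, 13.5, 14.1 and 22.1 CPM in oxaliplatin mice 1 to 5, against 18.5, 11.2, 24.9 and 18.4 CPM in vehicle mice 1 to 4. Every oxaliplatin value fell inside the vehicle range. Its log2 fold change was -0.09 ± 0.21 (SE, 95% interval -0.56 to 0.37, edgeR adjusted p = 0.965).

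Chrng, the gamma subunit of the receptor before birth and of denervated fibres (ENSMUSG00000026253, chr1:87204657-87212694, plus strand), stayed near the limit of counting. It had 6, 2, 1, 2 and 13 counts in oxaliplatin mice 1 to 5, against 0, 1, 7 and 4 counts in vehicle mice 1 to 4. Only the library of oxaliplatin mouse 5 was above every vehicle library. Of the counts of Chrng and Chrne together, Chrng was 1.72% in oxaliplatin mouse 5 (exact 95% interval 0.919 to 2.92) and 0.369% to 1.20% in the other oxaliplatin mice, against 0.972% in vehicle mouse 3 (0.392 to 1.99) and 0 of 450 counts in vehicle mouse 1, which allows a share of up to 0.667% by the limit of 3 counts (exact 95% interval 0 to 0.816). The interval of oxaliplatin mouse 5 lay above that of vehicle mouse 1 and overlapped those of the other vehicle mice, and intervals cover counting error only. A difference in Chrng between the groups was not detectable at this depth.

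The subunits also differed in their balance within a library. The ratio of Chrna1 counts to Chrne counts was 2.02, 1.25, 1.47, 1.52 and 1.96 in oxaliplatin mice 1 to 5, against 1.09, 1.26, 0.927 and 0.868 in vehicle mice 1 to 4. The groups overlapped only in that vehicle mouse 2 lay just above oxaliplatin mouse 2. With mouse 5 counted as vehicle, its 1.96 would lie above every oxaliplatin mouse except mouse 1. The ratio of Chrnb1 to Chrne was 1.45, 1.04, 1.11, 1.42 and 1.24 in oxaliplatin mice, against 0.802, 1.20, 0.829 and 1.04 in vehicle mice, with more overlap. The ratio of Chrnd to Chrne ran from 0.154 to 0.311 in oxaliplatin mice and from 0.112 to 0.286 in vehicle mice. That of Chrna1 to Dok7 ran from 1.51 to 2.99 in oxaliplatin mice and from 1.23 to 2.14 in vehicle mice. These ratios were looked at after the values were known and were not tested.

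**Figure D2:**
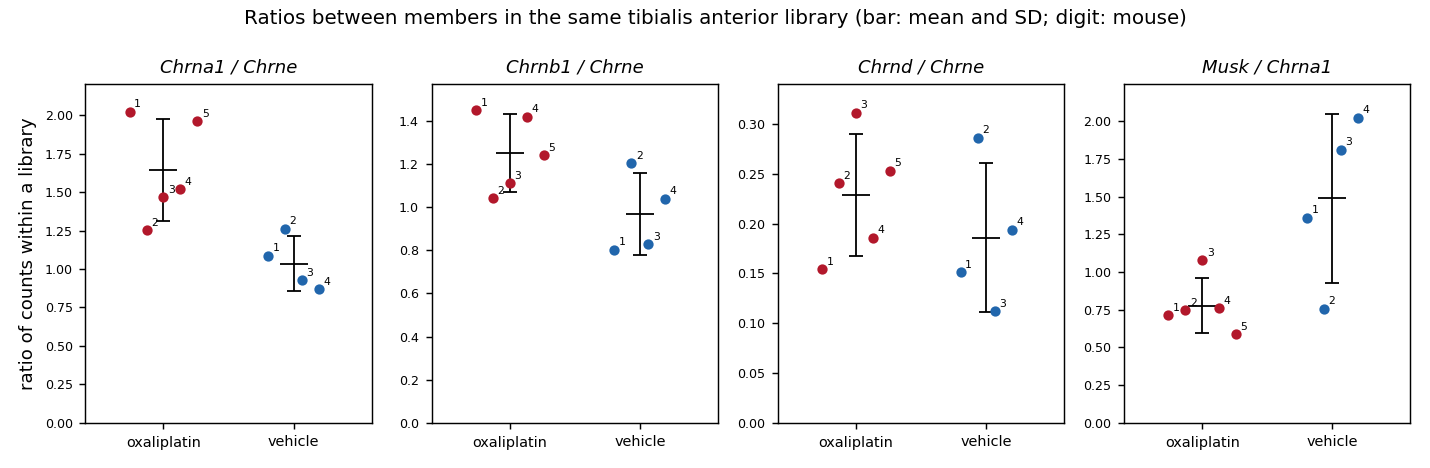
Ratio of raw counts of 2 genes within each tibialis anterior library, oxaliplatin (red) left of vehicle (blue), with the mouse number beside each point and bars for the mean and SD. Chrna1 over Chrne lies between 1.25 and 2.02 with oxaliplatin and between 0.868 and 1.26 with vehicle, while the other 3 ratios overlap more.

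Musk, the kinase that starts receptor clustering (ENSMUSG00000057280, chr4:58285960-58374303, plus strand), measured 23.4, 18.5, 21.4, 16.3 and 25.4 CPM in oxaliplatin mice 1 to 5, against 27.3, 10.7, 41.9 and 32.3 CPM in vehicle mice 1 to 4. The vehicle libraries spread around the oxaliplatin ones, with 3 above all of them and vehicle mouse 2 below all. Musk had a log2 fold change of -0.42 ± 0.31 (SE, 95% interval -1.10 to 0.26, edgeR adjusted p = 0.763), and of -0.68 without vehicle mouse 2 (edgeR adjusted p = 0.204). Without that mouse, Musk was the only 1 of the 9 tested genes at an unadjusted p under 0.05. Counts of Musk per count of Chrna1 were 0.588 to 1.08 in oxaliplatin mice, against 1.36, 0.756, 1.81 and 2.02 in vehicle mice 1 to 4, so that vehicle mouse 2 alone lay in the oxaliplatin range.

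Dok7, the adaptor that keeps MuSK active (ENSMUSG00000044716, chr5:35056766-35087839, plus strand), measured 11, 15.4, 13.1, 11.2 and 14.7 CPM in oxaliplatin mice 1 to 5, against 9.39, 11.6, 14.3 and 9.39 CPM in vehicle mice 1 to 4. The groups overlapped, with oxaliplatin mice 2 and 5 highest. Dok7 had a log2 fold change of 0.23 ± 0.16 (SE, edgeR adjusted p = 0.745).

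Myog, the myogenic transcription factor that switches on receptor genes after nerve loss (ENSMUSG00000026459, chr1:134289989-134292548, plus strand), measured 4.46, 3.33, 3.45, 3.69 and 5.35 CPM in oxaliplatin mice 1 to 5, against 4.14, 2.81, 2.10 and 4.16 CPM in vehicle mice 1 to 4. Oxaliplatin mice 1 and 5 were above all vehicle mice and the other oxaliplatin mice lay within the vehicle range. Its log2 fold change was 0.30 ± 0.23 (SE, 95% interval -0.21 to 0.81, edgeR adjusted p = 0.783), and 0.01 with mouse 5 counted as vehicle.

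Runx1, a transcription factor that limits wasting of denervated fibres and is also made in blood cells (ENSMUSG00000022952, chr16:92601466-92826149, minus strand), measured 1.61, 1.35, 0.650, 1.04 and 1.87 CPM in oxaliplatin mice 1 to 5, against 1.19, 0.977, 1.99 and 2.37 CPM in vehicle mice 1 to 4. Vehicle mice 3 and 4 were the highest libraries and oxaliplatin mouse 3 the lowest. Runx1 had a log2 fold change of -0.32 ± 0.34 (SE, edgeR adjusted p = 0.871). Ncam1, an adhesion molecule of synapses, Schwann cells and satellite cells (ENSMUSG00000039542, chr9:49502136-49798925, minus strand), measured 9.91, 11.8, 6.85, 11.2 and 13.0 CPM in oxaliplatin mice 1 to 5, against 10.4, 6.19, 14.4 and 17.5 CPM in vehicle mice 1 to 4. Again vehicle mice 3 and 4 were highest, and the log2 fold change was -0.20 ± 0.27 (SE, edgeR adjusted p = 0.903). Exons of Runx1 share 106 bases (0.88% of them), and those of Ncam1 417 bases (4.81%), with antisense genes. Reads there cannot be told apart without strand, and neither antisense gene had a row in the muscle table.

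Markers of other cell types also differed between these libraries. Within the vehicle group, leukocyte and fibroblast markers were highest in mice 3 and 4. The summed level of 12 leukocyte markers was 111, 82.1, 52.5, 60.5 and 83.3 CPM in oxaliplatin mice 1 to 5, against 32.0, 40.3, 99.8 and 169 CPM in vehicle mice 1 to 4. That of 8 fibroblast markers was 408 to 856 CPM in oxaliplatin mice, against 551, 665, 1275 and 1899 CPM in vehicle mice 1 to 4. Of the 8 fibroblast markers, 5 were lower with oxaliplatin at an unadjusted p under 0.05, where 4.79% of all genes were, and none passed the edgeR threshold. Satellite cell markers summed to 87.7 to 110 CPM with oxaliplatin and 85.1 to 112 CPM with vehicle, but 5 of the 7 tested were below 0, with a median log2 fold change of -0.52, and 2 were above 0. None of the 7 passed the edgeR threshold. At an unadjusted p under 0.05 Sdc4 was higher and Heyl lower, where 4.8% of all genes were higher and 4.79% lower. Sdc4 was the most abundant of these markers, at 53.2 to 71.3 CPM with oxaliplatin and 41.0 to 48.6 CPM with vehicle. Its groups did not overlap, and 2.18% of all genes were higher with oxaliplatin without overlap. The 8 endothelial markers summed to 237 to 270 CPM with oxaliplatin and 158 to 207 CPM with vehicle, with 7 above 0 and 1 below. At an unadjusted p under 0.05, 3 were higher, where 4.8% of all genes were. The groups did not overlap for 2, both higher with oxaliplatin, against 2.18% of all genes. edgeR called 1 of the 8, Pecam1, where 0.163% of all genes were called (log2 fold change 0.68 ± 0.11, SE, edgeR adjusted p = 0.0443). That call was lost when any 1 of the 9 libraries was left out (edgeR adjusted p from 0.0581 to 0.181) and with mouse 5 counted as vehicle. The part of these cells in the values of Runx1, Ncam1 and Musk was not tested.

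Schwann cells, which wrap motor axons and cap the junction, were measurable in muscle RNA. Their 13 markers in the table summed to 104 to 180 CPM with oxaliplatin and 92.3 to 135 CPM with vehicle, with oxaliplatin mice 2 and 5 highest. None of the 13 passed the edgeR threshold, and 9 of them were above 0 and 4 below. At an unadjusted p under 0.05, 3 were higher, where 4.8% of all genes were, among them the myelin gene Mbp and the neurotrophin receptor gene Ngfr. Ngfr averaged 3.74 CPM with oxaliplatin and 2.34 CPM with vehicle (log2 fold change 0.68, edgeR adjusted p = 0.363). Of 11 motor axon markers, 3 had a row in the muscle table, and they summed to at most 0.913 CPM with oxaliplatin and 1.24 CPM with vehicle.

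Per kilobase of exon, the order of levels within a group was similar in both. In oxaliplatin muscle it ran from Chrne (10.1 CPM per kb) through Chrnb1 (8.42), Chrna1 (6.48), Musk (5.56), Dok7 (3.06), Myog (2.71), Ncam1 (1.22), Chrnd (1.20) and Runx1 (0.108) to Chrng (0.0373). In vehicle muscle Musk stood second, at 7.43 ± 3.45 CPM per kb (SD, n = 4), between Chrne at 10.8 ± 3.30 and Chrnb1 at 6.73 ± 1.35 CPM per kb (SD, n = 4 each). Neighbours whose library ranges did not overlap were Musk and Dok7, Myog and Ncam1, and Chrnd and Runx1 with oxaliplatin, and Chrnb1 and Chrna1, Chrnd and Runx1, and Runx1 and Chrng with vehicle. All other neighbours overlapped. The levels spanned from the most abundant adult subunit to the fetal subunit at the bottom in both groups.

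Over the 9 muscle libraries, the genes whose log2 levels followed the mean of the 9 tested genes most closely were Trp63 (Pearson r = 0.951), Gtf2a1 (0.949), Dus3l (0.949), Zfp641 (0.944) and Pcdhga8 (0.930), of 14728 genes compared. For Chrna1 alone they were Napa (r = 0.965), Art3 (0.963), Syngr2 (0.961), Calcoco1 (0.960) and Stc2 (0.955). For Myog the closest was Mysm1 (r = 0.954) and for Runx1 it was Phrf1 (r = 0.972). The libraries share their depth and group between genes, and with 9 points such maxima are a ranking only. None of the closest 5 genes of Chrna1, Myog or Runx1 was among the 10 genes themselves. The tested genes were left out of the ranking for their own mean, so none could appear there.

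Other genes of the junction did not pass the test either. Of 30 further genes of the postsynaptic apparatus, the synaptic basal lamina and their signalling, 27 were tested, 13 were above 0 and 14 below, and their median log2 fold change was -0.00, against -0.01 over all genes. edgeR, DESeq2 and limma-voom each called 0 of them, and at an unadjusted p under 0.05 edgeR had 1 higher, Erbb3, where 4.8% of all genes were higher. Erbb3, the neuregulin receptor made by Schwann cells and muscle, measured 5.58, 8.02, 5.05, 4.64 and 6.27 CPM in oxaliplatin mice 1 to 5, against 4.47, 5.01, 3.28 and 4.41 CPM in vehicle mice 1 to 4. Its groups overlapped only through oxaliplatin mouse 4 and vehicle mouse 2, and the log2 fold change was 0.46 ± 0.19 (SE, edgeR adjusted p = 0.452).

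Rapsn, which anchors receptors beneath the membrane, averaged 47.4 ± 3.48 CPM with oxaliplatin and 41.5 ± 5.92 CPM with vehicle (SD, n = 5 and 4), a log2 fold change of 0.19 ± 0.12 (SE, edgeR adjusted p = 0.689). Ache, the enzyme that breaks down acetylcholine in the cleft, had a log2 fold change of -0.34 ± 0.20, the agrin receptor Lrp4 one of -0.20 ± 0.19 and agrin itself, Agrn, one of -0.03 ± 0.24 (SE each). Erbb2, the partner of Erbb3, had -0.58 ± 0.35, and Dtna and Crkl, which belong to the scaffold and the MuSK signalling complex, had 0.21 ± 0.11 and 0.18 ± 0.11 (SE each). None of these differences passed the test, and edgeR adjusted p-values ran from 0.615 for Dtna to 0.992 for Agrn.

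**Figure D3:**
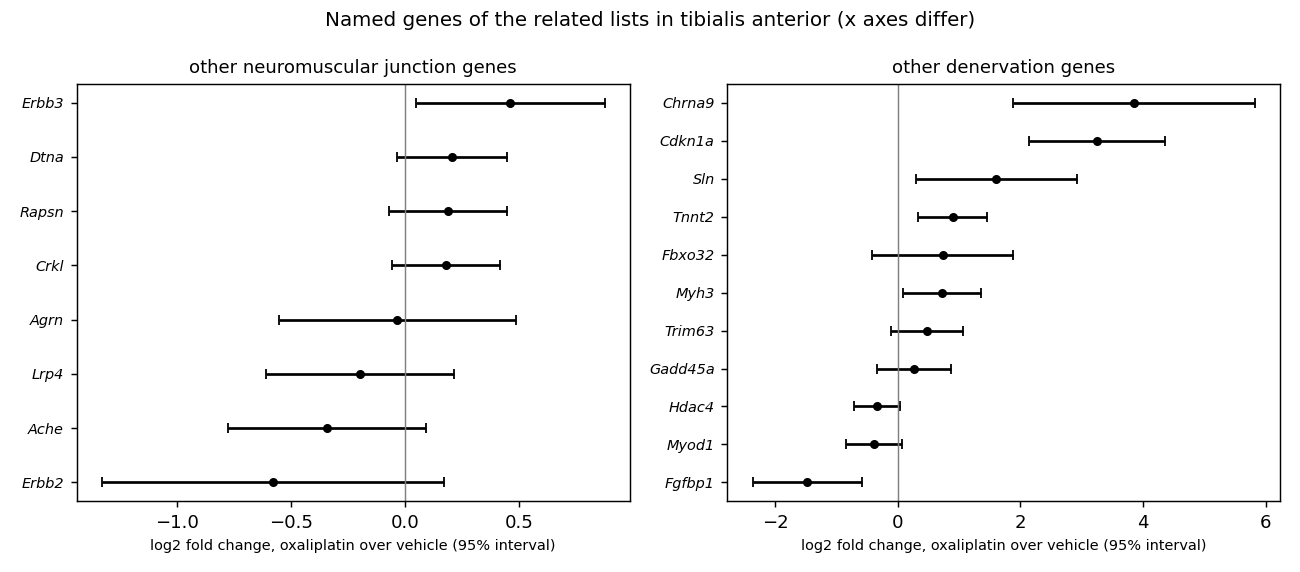
Log2 fold change, oxaliplatin over vehicle, with its 95% interval for the named genes of 2 related lists in tibialis anterior, junction genes on the left and denervation genes on the right, on different axes. Junction genes lie between -0.58 and 0.46, while Chrna9 (3.86) and Cdkn1a (3.25) stand far to the right and Fgfbp1 (-1.48) to the left.

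A second list held 30 genes that respond to nerve loss, such as ubiquitin ligases, embryonic myosin and cell cycle inhibitors. edgeR tested 28 and called 0, with 5 higher and 1 lower at an unadjusted p under 0.05, where 4.8% of all genes were higher and 4.79% lower. Of the 28, 19 were above 0 and the median log2 fold change was 0.21, against -0.01 over all genes. limma-voom called 0. DESeq2, run on all 20628 genes of the muscle table, called 248. Of the 30 list genes, all in that table, it called 3, Cdkn1a, Chrna9 and Fgfbp1. For the same 3 genes the libraries of the groups did not overlap. Of them, 2 were higher with oxaliplatin, against 2.18% of all genes, and 1 lower, against 1.7% of all genes. Chrna9 is in both counts of higher genes. It passed the filter on low counts only through the oxaliplatin group, so its place in these counts bears no weight.

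Cdkn1a, the cell cycle inhibitor p21, a target of p53 that rises after DNA damage as well as after nerve loss, measured 90.5, 40.4, 33.7, 33.0 and 125 CPM in oxaliplatin mice 1 to 5, against 5.13, 6.07, 9.64 and 6.33 CPM in vehicle mice 1 to 4. All oxaliplatin mice were above all vehicle mice, with mice 1 and 5 highest. A log2 fold change of 3.25 ± 0.49 (SE) just missed the threshold (edgeR adjusted p = 0.0526), while DESeq2 called it (adjusted p = 2.63e-08). edgeR called it without oxaliplatin mouse 5 (2.86, adjusted p = 0.0477) and among genes with a mean of at least 1 CPM (adjusted p = 0.0486), and with mouse 5 counted as vehicle it was 0.69.

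Chrna9, an acetylcholine receptor subunit best known from hair cells of the inner ear, belongs to the same receptor family. It measured 4.27, 0.675, 0.600, 0.379 and 1.40 CPM in oxaliplatin mice 1 to 5, against 0.205, 0.0814, 0 and 0.113 CPM in vehicle mice 1 to 4. These are 130, 17, 12, 12 and 47 counts in oxaliplatin mice, against 5, 2, 0 and 4 counts in vehicle mice. Every oxaliplatin library was above every vehicle library, and the gene passed the filter on low counts only through the oxaliplatin group. Chrna9 had a log2 fold change of 3.86 ± 0.90 (SE, edgeR adjusted p = 0.143), 2.92 without oxaliplatin mouse 1 and 1.99 with mouse 5 counted as vehicle. DESeq2 called Chrna9 (adjusted p = 0.000406), a call that bears on a gene admitted by the group in which it was high.

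Fgfbp1, a carrier of fibroblast growth factors made by muscle and known in mice to help keep junctions in place, measured 1.05, 3.49, 1.90, 3.09 and 0.832 CPM in oxaliplatin mice 1 to 5, against 3.77, 4.19, 8.14 and 6.81 CPM in vehicle mice 1 to 4. All oxaliplatin mice were below all vehicle mice, with mice 1 and 5 lowest. Fgfbp1 had a log2 fold change of -1.48 ± 0.41 (SE, edgeR adjusted p = 0.223), and -0.99 with mouse 5 counted as vehicle. DESeq2 called it (-1.46, adjusted p = 0.0250).

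Sln, sarcolipin, an inhibitor of the calcium pump, measured 15.7, 9.80, 10.9, 7.14 and 14.6 CPM in oxaliplatin mice 1 to 5, against 4.27, 8.59, 0.839 and 1.75 CPM in vehicle mice 1 to 4. Only oxaliplatin mouse 4 and vehicle mouse 2 overlapped, and the log2 fold change was 1.61 ± 0.58 (SE, edgeR adjusted p = 0.404), or 0.85 with mouse 5 counted as vehicle. Tnnt2, the cardiac troponin T that young and regenerating fibres make, had 0.89 ± 0.26, and Myh3, embryonic myosin, 0.72 ± 0.29 (SE each, edgeR adjusted p = 0.235 and 0.440). With mouse 5 counted as vehicle they had 0.41 and 0.25. The ubiquitin ligase gene Trim63 measured 429, 177, 177, 177 and 343 CPM in oxaliplatin mice 1 to 5, against 178, 185, 201 and 184 CPM in vehicle mice 1 to 4. Mice 1 and 5 were high and the other oxaliplatin mice lay just below the vehicle range, with a log2 fold change of 0.48 ± 0.27 (SE, edgeR adjusted p = 0.642), 0.22 without oxaliplatin mouse 1 and 0.14 with mouse 5 counted as vehicle. The other ligase gene, Fbxo32, measured 762, 173, 194, 131 and 519 CPM in oxaliplatin mice 1 to 5, against 197, 184, 211 and 264 CPM in vehicle mice 1 to 4. Again mice 1 and 5 were high, while mice 2 and 4 were below the vehicle range and mouse 3 within it. Fbxo32 had a log2 fold change of 0.73 ± 0.51 (SE, edgeR adjusted p = 0.746), 0.25 without oxaliplatin mouse 1 and 0.20 with mouse 5 counted as vehicle. Gadd45a, a stress gene, had 0.26 ± 0.28 (SE, edgeR adjusted p = 0.870). Hdac4, a deacetylase that carries the denervation signal to Myog, had -0.34 ± 0.17, and Myod1 -0.40 ± 0.21 (SE each, edgeR adjusted p = 0.578 and 0.610).

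In fat, Musk, Dok7 and Chrna1 were highest in the 1 library that was rich in muscle fibre genes. The 11 muscle fibre genes summed to 369 to 3151 CPM in oxaliplatin mice, against 1321, 16.3 and 128135 CPM in vehicle mice 1, 2 and 4. The 8 adipocyte markers summed to 16344 to 22704 CPM with oxaliplatin and 17068 to 23588 CPM with vehicle. All 10 genes had a row, and Chrnd, Chrne, Chrng and Myog were below the filter. edgeR called 0 of the 6 tested, where 0% of all 19870 genes were called; at an unadjusted p under 0.05 it had 0 of the 6 and 26.1% of all genes. DESeq2 and limma-voom also called 0 of the 6.

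Musk in fat measured 2.27, 3.35, 0.818 and 0.941 CPM in oxaliplatin mice 2 to 5, against 0.601, 0.520 and 38.3 CPM in vehicle mice 1, 2 and 4. Vehicle mouse 4 alone was above the oxaliplatin mice, and the other vehicle mice were below all of them. Musk had a log2 fold change of -2.83 ± 1.41 (SE, edgeR adjusted p = 0.241), and without vehicle mouse 4 it was 1.73 (adjusted p = 0.284). Dok7 and Chrna1 had their highest fat value in vehicle mouse 4 too, at 9.69 and 2.97 CPM. Without that library the log2 fold change of Dok7 was -0.01, against -2.0 ± 0.91 (SE) with it. That of Chrna1 was 2.95 without it, against -0.99 ± 1.39 (SE) with it. The value of 2.95 rested on 18, 18, 2 and 1 counts in oxaliplatin mice 2 to 5, against 2 and 0 counts in vehicle mice 1 and 2. Those vehicle counts are near the limit of counting, and only the oxaliplatin group then brought Chrna1 past the filter.

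**Figure D4:**
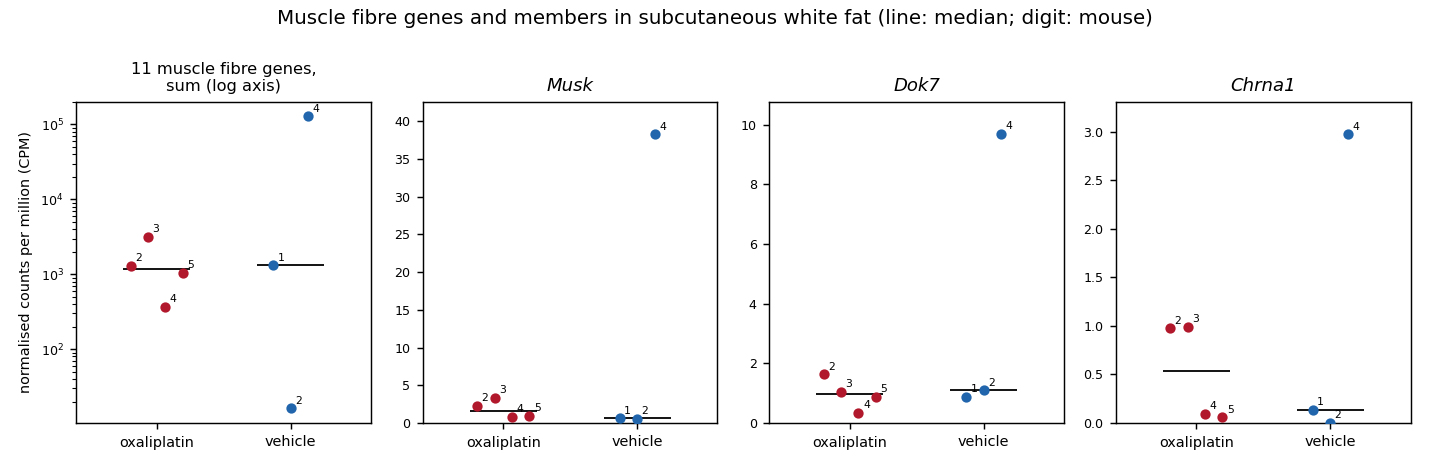
Summed CPM of 11 muscle fibre genes (log axis) and CPM of Musk, Dok7 and Chrna1 in each subcutaneous fat library, oxaliplatin (red) left of vehicle (blue), with the mouse number beside each point and a line at the median. Vehicle mouse 4 is the highest library in all 4 panels, at 128135 CPM for the fibre genes and 38.3 CPM for Musk.

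The other 3 genes tested in fat were Runx1, Chrnb1 and Ncam1, of which Chrnb1 and Ncam1 were also highest in vehicle mouse 4. Runx1 measured 7.36, 17.7, 22.3 and 30.5 CPM in oxaliplatin mice 2 to 5, against 22, 51.3 and 29.7 CPM in vehicle mice 1, 2 and 4, and its groups overlapped (log2 fold change -0.82 ± 0.47, SE, edgeR adjusted p = 0.299). Chrnb1 measured 6.82, 7.36, 6.64 and 6.00 CPM in oxaliplatin mice, against 8.14, 6.87 and 9.03 CPM in vehicle mice (-0.26 ± 0.17, SE, edgeR adjusted p = 0.343). Ncam1 was 5.15 to 6.09 CPM with oxaliplatin and 3.20 to 7.60 CPM with vehicle, the vehicle range enclosing the oxaliplatin one (0.12 ± 0.30, SE, edgeR adjusted p = 0.804).

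The hypothalamus has no neuromuscular junction, and 8 of the 10 genes had a row there. The 10 neuron markers summed to 2608 to 3169 CPM with oxaliplatin and 2802 to 3030 CPM with vehicle. edgeR called 0 of the 6 tested, where 0.148% of all 18941 genes were called; at an unadjusted p under 0.05 it had 0 of the 6 and 10.2% of all genes, and DESeq2 and limma-voom called 0. Ncam1, a major adhesion molecule of neurons, was abundant, at 584, 702, 708 and 747 CPM in oxaliplatin mice 2 to 5, against 670, 795 and 783 CPM in vehicle mice 1, 2 and 4. Its groups overlapped (log2 fold change -0.13 ± 0.11, SE, edgeR adjusted p = 0.685). Dok7 measured 18.6, 17.4, 16.6 and 14.8 CPM in oxaliplatin mice, against 17.5, 19.9 and 18.2 CPM in vehicle mice (-0.14 ± 0.11, SE, edgeR adjusted p = 0.681).

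The other 4 tested genes were low in hypothalamus. Chrnb1 averaged 1.76 ± 0.282 CPM with oxaliplatin and 1.23 ± 0.232 CPM with vehicle (SD, n = 4 and 3), a log2 fold change of 0.51 ± 0.26 (SE, edgeR adjusted p = 0.533). Runx1 had 0.36 ± 0.23, Musk 0.22 ± 0.31 and Chrna1 -0.14 ± 0.48 (SE each), with edgeR adjusted p-values of 0.613, 0.815 and 0.930. Library kits differed between muscle and the other tissues, so levels are not compared between tissues.

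**Figure D5:**
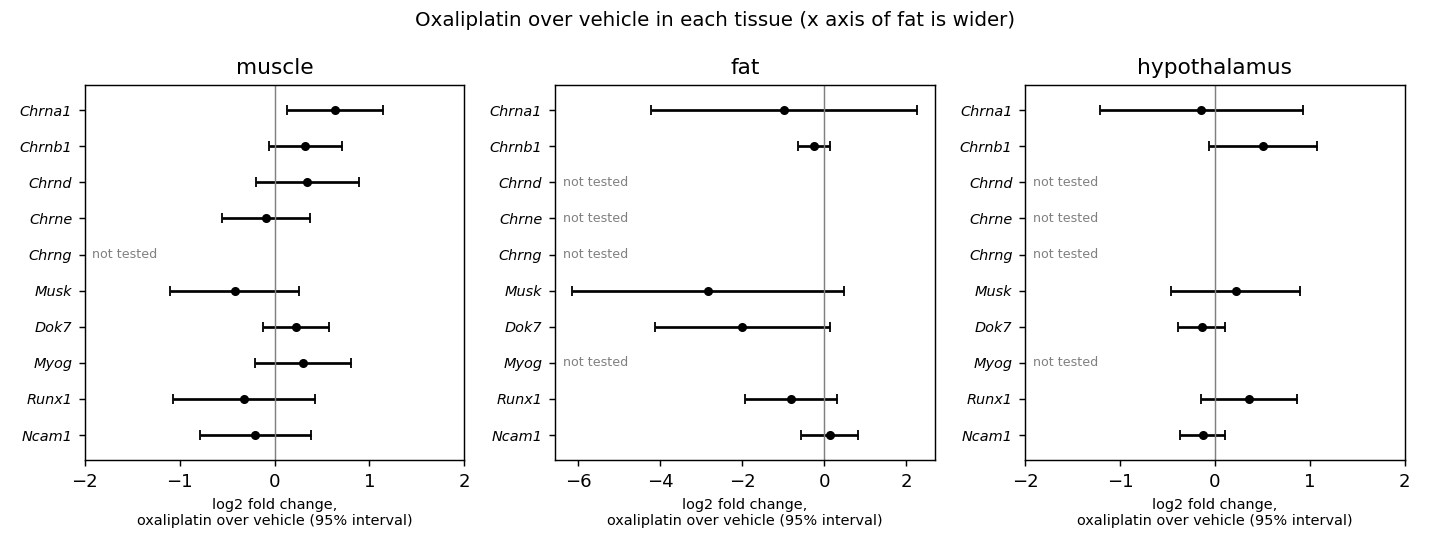
Log2 fold change, oxaliplatin over vehicle, with its 95% interval for the 10 genes in each tissue, with genes below the count filter or without a row marked as not tested. In muscle the interval of Chrna1 (0.13 to 1.14) alone lies off 0 before adjustment. For each gene tested in fat except Chrnb1, the interval in fat is the widest.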

How the data were processed

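RNA was extracted on magnetic beads, and libraries were made with a SMARTer kit for muscle and a RiboErase kit for the other tissues, per the labels' protocols. The submitters' processing notes name STAR 2.5.1a, Partek and DESeq2 without saying what each did, and the genome build and the strand setting of the counting are not given in the sources used here. The authors deposited expected counts per gene and library, not scaled between libraries: 45.1% of muscle, 41.0% of fat and 48.6% of hypothalamus values were not whole. They were rounded to whole numbers first, where the plan had assumed whole counts. Coordinates are those of GENCODE M21 (GRCm38), whose gene starts equalled the deposited ones for 99.5% of 20574 muscle identifiers and all 10 genes described. No pair of libraries of a group was a copy of another.

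Each tissue was fitted on its own in R 4.3.3. Genes were kept by edgeR 4.0.16 filterByExpr at a minimum count of 10 and a minimum total of 15 (14737 in muscle). With TMM factors, the robust edgeR quasi-likelihood F test set oxaliplatin against vehicle, with Benjamini-Hochberg adjustment over all genes of a tissue and 0.05 as the threshold. The fit was checked on simulated counts. CPM were divided by the TMM factors. Each SE is the log2 fold change over the square root of its F statistic. The alternatives were DESeq2 1.42.0, limma-voom 3.58.1, other library factors, other filters, a block by mouse number, each library left out, and muscle mouse 5 counted as vehicle. A list gene is named if it was among the 6 of smallest p, if its groups did not overlap, or if it was one of 10 set by name; some list genes are not reported here. The genes, lists and rules were chosen with earlier results of these data known. Fat libraries held 16458523 to 17986524 counts with oxaliplatin and 16866078 to 22748362 with vehicle. Hypothalamus libraries held 23553612 to 26426309 counts with oxaliplatin and 27345593 to 28529269 with vehicle.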

Additional observations from a re-analysis of the deposited data

Results flagged for a closer look

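Of 75 groups of 4 or 5 libraries examined for a value far from the others, 4 held one, and chance gives about 1 in 20. Lrp4 in muscle was 8.37 CPM in oxaliplatin mouse 1, against 15.4 to 17.7 CPM in the other oxaliplatin mice. Chrna9 in muscle was 4.27 CPM in oxaliplatin mouse 1, against 0.379 to 1.40 CPM in the other oxaliplatin mice. Tnnt2 in muscle was 5.38 CPM in vehicle mouse 2, against 2.60 to 3.04 CPM in the other vehicle mice. Chrnd in fat was 0.439 CPM in oxaliplatin mouse 3, against 0 to 0.0481 CPM in the other oxaliplatin mice. What sets these libraries apart was not tested.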

How the results depend on the processing

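Of the 10 genes, 0 were called under any of the 17 alternatives in muscle or any alternative run in the other tissues. The log2 fold change of Chrna1 in muscle ran from 0.08 to 0.76. Which genes had an unadjusted p under 0.05 in muscle also moved with the libraries kept. Chrnb1 joined Chrna1 without oxaliplatin mouse 3, Chrnb1 and Dok7 joined it without vehicle mouse 3, and Musk, lower, replaced it without vehicle mouse 2. In muscle, 24 genes were called in all, against 248 by DESeq2, 42 with no filter and 0 with mouse 5 counted as vehicle (701 at an unadjusted p under 0.05), and 2 to 17 with 1 library left out. In fat 0 were called, against 2377 by DESeq2 and 0 to 4969 with 1 library left out. In hypothalamus 28 were called, against 266 by DESeq2, 16 by limma-voom and 0 to 655 with 1 library left out. The causes were not tested.

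These log2 fold changes changed sign, none of them called. In muscle, Agrn was 0.017 by limma-voom and ran from -0.22 to 0.16 with 1 library left out. Chrnd was -0.040 with mouse 5 counted as vehicle, and Chrne (-0.25 to 0.095) and Ncam1 (-0.41 to 0.030) changed sign with 1 library left out. In fat, Chrna1 was 0.34 by limma-voom and ran from -1.57 to 2.95, Musk from -3.43 to 1.73 and Ncam1 from -0.13 to 0.56 with 1 library left out. In hypothalamus Chrna1 ran from -0.45 to 0.091. With exon length taken from the longest transcript, vehicle muscle held 4.01 CPM per kb of Dok7 and 0.279 of Runx1, and the order was the same.

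Mouse numbers name different animals in the 2 groups. The correlation of the deviations of same-numbered muscle libraries was 0.05, -0.09, -0.18 and 0.17 for numbers 1 to 4. For numbers 2 and 4 it was -0.18 and -0.28 in fat, and 0.03 and -0.01 in hypothalamus. In muscle the closest partner bore the same number for number 4 only, in hypothalamus for number 2 only, and in fat for neither number. Whether libraries of the same number shared a step of processing was not tested. With the replicate block edgeR called 3 genes in muscle, Agrn was 0.0065, Ncam1 in fat -0.15, and in hypothalamus Chrna1 was 0.62 and Musk -0.062. Depth limits Chrng in muscle, with 0 to 13 counts per library.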
